A study of Homo sapiens with 16 samples.

Results

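Cells detect foreign or misplaced nucleic acid with a small set of sensor proteins and others that pass on or restrain their signal. The RNA of 10 genes of that system, all called sensors here, was followed in 2 BRAF inhibitor-resistant (BRAFi-R) melanoma cell lines. They include an adaptor (MAVS), a transcription factor (IRF3) and an editing enzyme (ADAR). The 10 genes, RIGI, IFIH1, DHX58, TLR3, MAVS, CGAS, STING1, EIF2AK2, ADAR and IRF3, were taken by name from a list, and all 10 were found among the 34228 genes of the deposited table. The lines were 451Lu-R, of the MITF-hi/AXL-lo state, and 1205Lu-R, of the MITF-lo/AXL-hi state, both derived by months of rising doses of the BRAF inhibitor PLX4032 and kept in that drug. Each line was treated for 24 h with DMSO, the vehicle, or with 2.5 μM corin, a single molecule that inhibits both the histone deacetylases HDAC1/2 and the demethylase LSD1 of the CoREST repressor complex. There were 2 polyA RNA libraries in each of the 4 groups. The DMSO and corin groups had no PLX4032 treatment. Each state is represented by 1 line, so the line and the state cannot be told apart. The labels do not say whether the 2 libraries of a group came from separate cultures, so every p-value measures only the spread between these libraries, which may be technical.

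The sensors fall into 3 branches. RIG-I (RIGI) and MDA5 (IFIH1) bind double-stranded RNA in the cytosol and signal through the mitochondrial adaptor MAVS, while LGP2 (DHX58), their relative without the signaling domains, modulates both. TLR3 reads double-stranded RNA inside endosomes and signals through another adaptor, TICAM1. On the DNA side the enzyme cGAS (CGAS) makes a cyclic dinucleotide that activates STING (STING1), and all these routes converge on kinases that activate the transcription factor IRF3. PKR (EIF2AK2) shuts down translation on double-stranded RNA, and ADAR1 (ADAR) edits adenosines in such RNA so that a cell's own duplexes are not taken for foreign ones. Many of these genes are themselves induced by interferon. The study treats the cells with a CoREST inhibitor, and the comparison asks how the RNA of each sensor stood with and without it in each line.

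Library totals ran from 9516687 to 11797788 estimated counts. Mitochondrial transcripts took 2.98 to 3.07% of counts in 451Lu-R with DMSO and 5.86 to 5.89% with corin, against 0.377% and 0.705 to 0.707% in 1205Lu-R, and their part in the results was not tested. The 2 libraries of a group differed by 1.34 to 1.40 times the variance of counting alone. Summed over the 10 melanoma markers, 451Lu-R held 13820 to 13840 normalized CPM (counts scaled to library size) with DMSO and 12450 to 12460 with corin, but 1205Lu-R held only 380 to 395 and 197 to 199, with SOX10 and TYR at 0 counts in all 4 of its libraries. Most of that sum was CSPG4, at 356 CPM with DMSO and 147 with corin on average, while 4 of the 5 melanoma markers tested in 1205Lu-R rose. Leukocyte markers, of which 7 of 9 were in the table, summed to 1.93 to 3.32 CPM with DMSO and 9.04 to 10.1 with corin in 451Lu-R, and to 1.60 to 2.65 and 6.11 to 6.17 in 1205Lu-R. The pan-leukocyte gene PTPRC and the B cell gene MS4A1 were at 3 counts or fewer in every library. The 4 endothelial markers summed to 1.28 to 1.40 and 8.71 to 9.52 CPM in 451Lu-R, and to 11.1 to 11.2 and 23.9 to 27.5 in 1205Lu-R.

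Promoters were compared because several of the sensors are interferon-inducible. Of the 10 genes, 6 (RIGI, IFIH1, TLR3, MAVS, EIF2AK2 and ADAR) matched the RefSeq promoter set of GRCh38.p14, which covers 250 bases before to 50 after a start, and CGAS, DHX58, IRF3 and STING1 did not. The core of the interferon-stimulated response element (ISRE), GAAANNGAA on either strand, was found in 3 of the 6, IFIH1, TLR3 and EIF2AK2, and in 8.11% of all 35116 promoters. It was present in a listed promoter of 19 of the 23 interferon-stimulated effector genes in the set. These counts are of genes with a match in any listed promoter, while the 8.11% is a share of promoters. The GAS element, TTCNNNGAA, which reads the same on both strands, lay in the TLR3 promoter and in 7.66% of all promoters. TGANTCA, an AP-1-like pattern with any base in the middle, also reads the same on both strands. It lay in the ADAR promoter, as TGAATCA, and in 7.71% of all promoters. The E-box CAGGTG, searched on both strands, lay in the MAVS promoter and in 20.6% of all. Shown here, on the gene's strand and up to the base before the start, are the 4 matched genes called with the largest change with corin, the first listed start being used for ADAR, with motif matches in capitals.
RIGI, chr9:32526197-32526446, minus strand: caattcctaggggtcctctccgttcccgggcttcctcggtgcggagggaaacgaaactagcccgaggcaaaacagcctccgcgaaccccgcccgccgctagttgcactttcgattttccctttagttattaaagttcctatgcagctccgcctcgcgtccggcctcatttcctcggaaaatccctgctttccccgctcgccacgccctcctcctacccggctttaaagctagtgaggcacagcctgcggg
IFIH1, chr2:162318685-162318934, minus strand: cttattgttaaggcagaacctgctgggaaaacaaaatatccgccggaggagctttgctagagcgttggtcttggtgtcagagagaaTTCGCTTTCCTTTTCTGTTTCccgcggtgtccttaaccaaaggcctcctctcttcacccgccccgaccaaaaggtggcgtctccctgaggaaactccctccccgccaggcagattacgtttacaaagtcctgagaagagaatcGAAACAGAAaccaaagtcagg
TLR3, chr4:186068906-186069155, plus strand: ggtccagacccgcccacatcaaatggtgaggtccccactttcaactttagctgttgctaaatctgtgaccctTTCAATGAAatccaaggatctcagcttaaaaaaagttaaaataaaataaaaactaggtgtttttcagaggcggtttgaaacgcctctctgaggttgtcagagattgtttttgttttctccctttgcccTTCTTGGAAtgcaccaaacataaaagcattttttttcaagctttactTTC
ADAR, chr1:154627998-154628247, minus strand: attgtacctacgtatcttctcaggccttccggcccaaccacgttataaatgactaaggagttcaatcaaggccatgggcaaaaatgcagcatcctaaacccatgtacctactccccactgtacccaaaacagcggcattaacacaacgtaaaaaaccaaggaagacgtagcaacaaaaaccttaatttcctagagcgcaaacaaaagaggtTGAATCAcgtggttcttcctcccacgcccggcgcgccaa
The IFIH1 window held 3 overlapping ISRE cores, which print as 1 run of capitals, and a 4th nearer the start. The TLR3 window held 2 GAS elements, and its last 3 capitals open an ISRE core that runs on past the start. The RIGI window held none of the 4 motifs as written, and its 250 bases were 59.6% G and C with 22 CpG dinucleotides, against 39.2% and 3 for TLR3. A match of letters is a description and not a binding site.

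**Figure D1:**
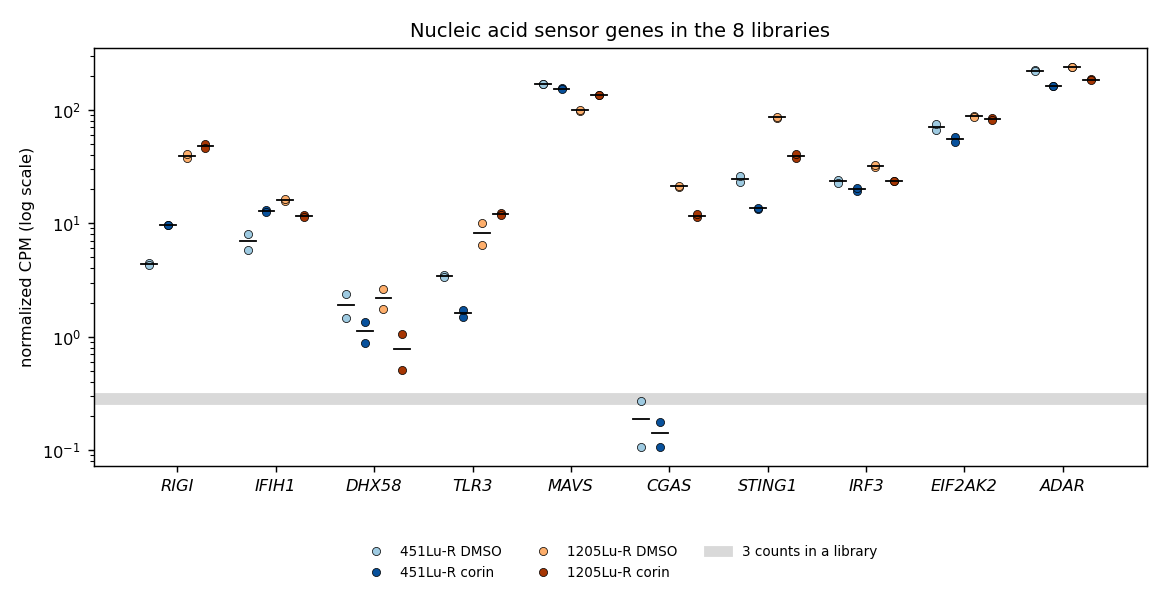
Normalized CPM on a log axis for the 10 sensor genes, 1 point per library, with the mean of each group as a black bar and the level of 3 counts as a gray band. CGAS sits at or under the band in all 451Lu-R libraries and near 21 and 12 CPM in 1205Lu-R, and in 1205Lu-R STING1 lies at 85.6 and 85.9 CPM with DMSO against 37.9 and 41.0 with corin.

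With corin the 10 genes, not all of them receptors, moved in both directions in each line, and more were called down than up. In 451Lu-R, 9 of the 10 genes could be tested, and RIGI and IFIH1 rose while STING1, TLR3, ADAR, EIF2AK2, IRF3 and MAVS fell (edgeR's quasi-likelihood test, Benjamini-Hochberg adjusted p under 0.05 over all genes, here called). In 1205Lu-R, 10 were tested, and TLR3, MAVS and RIGI rose while DHX58, STING1, CGAS, IFIH1, IRF3 and ADAR fell. STING1, ADAR and IRF3 thus fell in both lines and RIGI rose in both, whereas IFIH1, TLR3 and MAVS were called in opposite directions. Most genes were called with corin: in 451Lu-R 41.3% of the genes tested were called upward and 38.6% downward, and the shares for 1205Lu-R were 40.4% and 37.8%. The libraries of a group lay close together, so small shifts could be called, and the shares do not measure the size of the changes. Against those shares, 2 sensors up and 6 down of 9, and 3 up and 6 down of 10, are counts near the background in total. By direction, fewer were up and more were down than the shares in each line, a difference that was not tested. The median log2 fold change of the sensors tested was -0.38 in each line, beside 0.03 over all genes tested in each. In bulk RNA, fewer cells of a kind and less RNA per cell cannot be told apart.

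The changes were modest in size. A change of at least 2-fold was called for RIGI upward and TLR3 downward in 451Lu-R, where 22.2% of genes rose and 13.3% fell by that much. In 1205Lu-R it was called for DHX58 and STING1 downward, beside 9.8% of genes, and the steepest rise, that of TLR3, was 1.46-fold, while 22% of genes rose 2-fold or more.

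RIGI (chr9:32455302-32526208 in GRCh38, minus strand, 18 exons in its canonical transcript) encodes the receptor for short duplexes with a 5′-triphosphate. In 451Lu-R it stood at 4.47 and 4.32 CPM with DMSO and at 9.59 and 9.63 with corin. In 1205Lu-R it stood at 38.0 and 41.0 CPM with DMSO and at 49.7 and 46.1 with corin. The corin libraries were above the DMSO libraries in both lines, with no overlap, and the whole of 1205Lu-R lay above 451Lu-R. The log2 fold change was 1.10 (SE 0.17, edgeR adjusted p = 7.27e-06) in 451Lu-R and 0.29 (SE 0.07, edgeR adjusted p = 0.000795) in 1205Lu-R. GENCODE 44 places another gene on the same strand over 4471 of its exonic bases, which is not used here.

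IFIH1 (chr2:162267074-162318684, minus strand, 16 exons), which encodes the MDA5 receptor for long duplexes, moved in opposite directions. In 451Lu-R it rose from 5.78 and 8.06 CPM to 13.03 and 12.5. In 1205Lu-R it fell from 15.7 and 16.5 CPM to 11.8 and 11.4. The 2 DMSO libraries of 451Lu-R lay further apart than any other pair for this gene, yet both were below every corin library. The log2 fold changes were 0.87 (SE 0.16, edgeR adjusted p = 4.42e-05) and -0.46 (SE 0.12, edgeR adjusted p = 0.00156). With DESeq2 the fall in 1205Lu-R was no longer called (adjusted p = 0.0612).

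DHX58 (chr17:42101404-42112714, minus strand, 14 exons), encoding LGP2, was scarce, with 5 to 28 estimated counts in a library, which limits what could be told of it. The DMSO libraries of 451Lu-R gave 2.37 and 1.47 CPM and the corin libraries 0.880 and 1.35. The same pairs of 1205Lu-R gave 2.63 and 1.76 CPM, then 0.513 and 1.05. Groups did not overlap within a line, but the libraries of each group were spread widely. The log2 fold change was -0.84 in 451Lu-R (SE 0.40, edgeR adjusted p = 0.0595, not called) and -1.43 in 1205Lu-R (SE 0.42, edgeR adjusted p = 0.00432). The call in 1205Lu-R was lost without DMSO replicate 1 (log2 -1.12), without corin replicate 1 (-1.04) and with DESeq2 (-1.45), and the value was -2.06 without corin replicate 2. In 451Lu-R a call appeared without DMSO replicate 2 (-1.12), and the value was -0.46 without DMSO replicate 1.

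MAVS (chr20:3846799-3876123, plus strand, 7 exons), the adaptor that RIG-I and MDA5 share, was far more abundant in counts and its libraries were tight. In 451Lu-R it went from 169 and 168 CPM to 155 and 152. In 1205Lu-R it went from 98.2 and 99.5 CPM to 136 and 135. The fall in 451Lu-R was small (log2 -0.16, SE 0.03, edgeR adjusted p = 0.000283, or -0.26 with scaling by library totals only), and the rise in 1205Lu-R was larger (0.47, SE 0.04, edgeR adjusted p = 3.43e-10). The highest 1205Lu-R library remained under the lowest of 451Lu-R.

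TLR3 (chr4:186068911-186088073, plus strand, 5 exons), the endosomal receptor, also went opposite ways. In 451Lu-R it fell from 3.50 and 3.36 CPM to 1.49 and 1.73, that is, from 40 and 34 counts to 17 and 17. In 1205Lu-R it stood at 10.1 and 6.43 CPM with DMSO and at 12.4 and 11.8 with corin. Here the DMSO pair was spread over 108 and 66 counts, and the corin pair lay above both. The log2 fold changes were -1.10 (SE 0.30, edgeR adjusted p = 0.00228) and 0.55 (SE 0.16, edgeR adjusted p = 0.00474). Neither was called with DESeq2 (log2 -1.09 and 0.56), and the rise in 1205Lu-R was no longer called without DMSO replicate 2, where it was 0.24, and was 0.90 without DMSO replicate 1.

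On the DNA-sensing side, CGAS (chr6:73413515-73452297, minus strand, 5 exons), the enzyme that detects cytosolic DNA, was nearly absent from 451Lu-R. The DMSO libraries of that line had 3 and 1 counts and the corin libraries 2 and 1, at or under the 3 counts taken here as the floor, so no fold change was given. In 1205Lu-R it stood at 21.0 and 21.5 CPM with DMSO and 11.4 and 11.96 with corin. The corin pair lay clearly lower, with a log2 fold change of -0.85 (SE 0.11, edgeR adjusted p = 4.52e-07). A gene on the opposite strand, DDX43, shares 180 exonic bases with it, and had at most 1 count in any library.

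STING1 (chr5:139475533-139482935, minus strand, 8 exons), whose protein is the receptor for the cyclic dinucleotide, fell in both lines. In 451Lu-R it went from 23.0 and 26.3 CPM to 13.4 and 13.7. In 1205Lu-R it went from 85.6 and 85.9 CPM to 37.9 and 41.0. The groups were well apart in each line, and 1205Lu-R with corin still held more than 451Lu-R with DMSO. The log2 fold changes were -0.89 (SE 0.11, edgeR adjusted p = 2.12e-07) and -1.10 (SE 0.06, edgeR adjusted p = 7.65e-14). These falls were called in each of the 11 alternative fits.

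IRF3 (chr19:49659569-49665875, minus strand, 8 exons), the transcription factor on which the branches converge, was lower with corin in both lines. In 451Lu-R it went from 24.3 and 22.4 CPM to 19.3 and 20.6. In 1205Lu-R it went from 31.1 and 32.9 CPM to 23.7 and 23.8. The pairs did not overlap, though in 451Lu-R the gap was narrow. The log2 fold changes were -0.26 (SE 0.09, edgeR adjusted p = 0.0165) and -0.41 (SE 0.08, edgeR adjusted p = 0.000117). The call in 451Lu-R was lost with DESeq2 (-0.24), without DMSO replicate 1 (-0.21) and without corin replicate 1 (-0.20). IRF3 shares 734 exonic bases with BCL2L12 on the opposite strand, which had 186 to 211 counts in the DMSO libraries of 451Lu-R, 109 to 112 in its corin libraries and 263 to 303 across 1205Lu-R. Whether counting used strand is not given in the sources used here.

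The 2 genes that act on double-stranded RNA without signaling to IRF3 were among the most abundant in counts. ADAR (chr1:154581695-154628013, minus strand, 15 exons) went from 223 and 220 CPM to 161 and 162 in the 451Lu-R libraries. The 1205Lu-R libraries went from 237 and 239 CPM to 186 and 185. The fall was therefore tight in both lines, with log2 fold changes of -0.48 (SE 0.03, edgeR adjusted p = 2.51e-11) and -0.35 (SE 0.03, edgeR adjusted p = 2.87e-09). EIF2AK2 (chr2:37099210-37157522, minus strand, 17 exons) fell in 451Lu-R from 66.9 and 74.4 CPM to 57.6 and 52.1 (log2 -0.38, SE 0.07, edgeR adjusted p = 2.98e-05). In 1205Lu-R it stood at 89.1 and 86.6 CPM with DMSO and 85.5 and 82.2 with corin, and the difference was not called (log2 -0.06, SE 0.05, edgeR adjusted p = 0.274). It shares 35 exonic bases with GPATCH11 on the opposite strand, which is also counted in every library. A processed pseudogene on the opposite strand, ARL14EPP1, shares 401 exonic bases with EIF2AK2 and has no counts here.

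**Figure D2:**
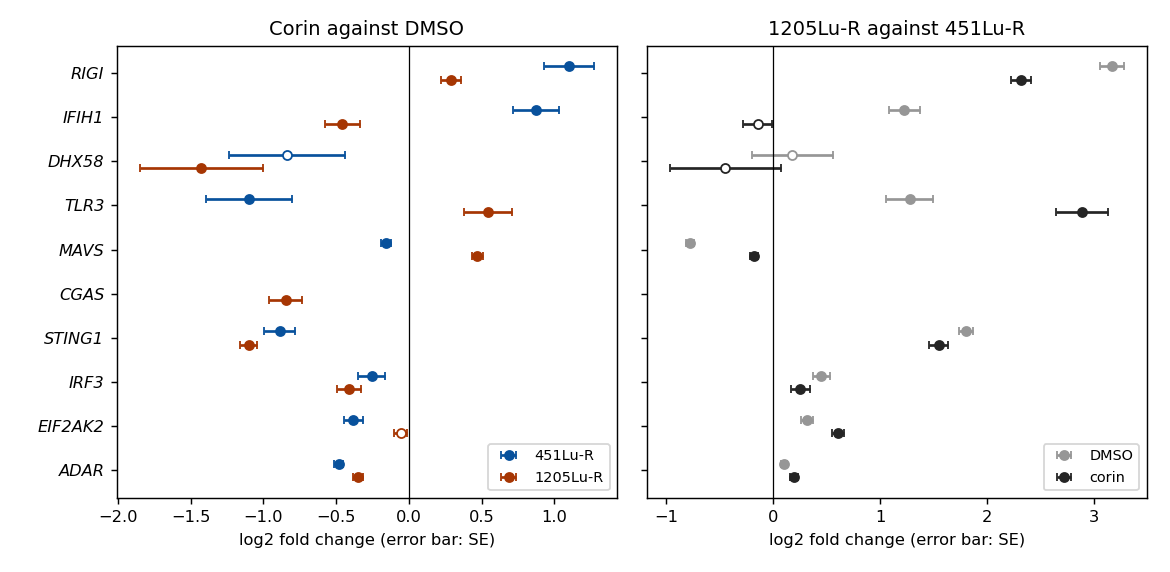
Log2 fold changes with standard errors for corin against DMSO in each line (left) and for 1205Lu-R against 451Lu-R with each treatment (right), filled where the adjusted p is under 0.05 and open where it is not. IFIH1, TLR3 and MAVS lie on opposite sides of 0 in the 2 lines, and CGAS is left out wherever 451Lu-R enters, since its counts there are at the floor.

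Whether the response itself differed between the lines was tested as an interaction, 1205Lu-R minus 451Lu-R. It was called for 5 of the 10 genes, beside 49.7% of all genes tested, so the share is that of the background. CGAS is counted among the 10, but it was at the floor in 451Lu-R, so its difference could not be judged. The difference was 1.61 (SE 0.36, edgeR adjusted p = 0.000726) for TLR3 and 0.59 (SE 0.05, edgeR adjusted p = 4.64e-09) for MAVS, both toward a higher response in 1205Lu-R. It was -1.37 (SE 0.20, edgeR adjusted p = 4.98e-06) for IFIH1 and -0.85 (SE 0.17, edgeR adjusted p = 0.000247) for RIGI, both toward a higher response in 451Lu-R. Thus the response was higher in 451Lu-R for the 2 receptors that signal through MAVS, and higher in 1205Lu-R for MAVS itself. EIF2AK2 differed by 0.29 (SE 0.08, edgeR adjusted p = 0.00556), a call lost without 451Lu-R DMSO replicate 2 (0.20), and by 0.50 with scaling by library totals only. The fall of STING1 was deeper by 0.25 in 1205Lu-R (-0.25, SE 0.12, edgeR adjusted p = 0.0853, not called). The differences of ADAR (0.09, SE 0.05), IRF3 (-0.20, SE 0.12) and DHX58 (-0.63, SE 0.64) were not called either. For DHX58 the error was about as large as the difference, so neither its size nor its direction could be told.

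The sensors also differed between the lines, and with DMSO a difference of at least 2-fold was called upward in 1205Lu-R for CGAS, RIGI, STING1, TLR3 and IFIH1, beside 19.3% of all genes. Without a fold limit, 8 of the 10 genes were higher in 1205Lu-R, beside 38.2% of all genes tested, and MAVS was lower, beside 37.2%. These contrasts use the same libraries as those of corin. CGAS was at least 76.2-fold higher in 1205Lu-R with DMSO, counting 451Lu-R at its floor of 3 counts per library. RIGI was 8.95-fold higher (log2 3.16, SE 0.11, edgeR adjusted p = 1.12e-16), STING1 3.48-fold (1.80, SE 0.07), TLR3 2.42-fold (1.28, SE 0.22) and IFIH1 2.34-fold (1.23, SE 0.14). Smaller differences were called for IRF3 (0.45, SE 0.08) and EIF2AK2 (0.32, SE 0.06, or 0.19 with scaling by library totals only). That of ADAR (0.10, SE 0.03, edgeR adjusted p = 0.00444) turned to -0.02 when libraries were scaled by their totals only. MAVS was lower by 0.77 on the log2 scale (-0.77, SE 0.04), and DHX58 was not called (0.18, SE 0.38).

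With corin, 7 of the 10 were higher in 1205Lu-R, beside 38% of all genes, and MAVS remained lower (-0.18, SE 0.04, or -0.09 with scaling by library totals only), beside 39%. TLR3 now differed by 2.89 (SE 0.24, edgeR adjusted p = 5.12e-10), a wider gap than with DMSO, and RIGI by 2.31 (SE 0.09). STING1 differed by 1.55 (SE 0.09), EIF2AK2 by 0.61 (SE 0.06), IRF3 by 0.26 (SE 0.09) and ADAR by 0.20 (SE 0.03). The call of IRF3 was lost in 3 of 14 alternative fits, with DESeq2, without 1205Lu-R corin replicate 2 and without 451Lu-R corin replicate 1. CGAS was at least 40.7-fold higher. IFIH1, with opposite responses, ended at 13.03 and 12.5 CPM in the first line and 11.8 and 11.4 in the second, a difference that was not called (-0.14, SE 0.13, edgeR adjusted p = 0.345).

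Levels of different genes were compared per kb of the canonical transcript. In 451Lu-R with DMSO, ADAR led with 33.5 CPM per kb, followed by IRF3 (14.7), MAVS (14.4), STING1 (11.4) and EIF2AK2 (7.09), where the libraries of IRF3 and MAVS overlapped. The receptors stood far below, IFIH1 at 1.93, RIGI at 0.950, DHX58 at 0.741 and TLR3 at 0.570 CPM per kb, DHX58 and TLR3 overlapping. With corin the 451Lu-R order kept ADAR first (24.4), with MAVS (13.1), IRF3 (12.5), STING1 (6.23), EIF2AK2 (5.50), IFIH1 (3.57) and RIGI (2.08) after it, and no neighbors overlapped. The lowest library of MAVS and the highest of IRF3 both rounded to 12.94, so their order was hardly resolved. In 1205Lu-R with DMSO, STING1 led at 39.5 CPM per kb, just above ADAR at 36.1, then IRF3 at 20.1. EIF2AK2 (8.81), RIGI (8.54) and MAVS (8.43) followed with overlapping libraries, and below them stood CGAS (6.64), IFIH1 (4.49), TLR3 (1.38) and DHX58 (0.846). With corin in 1205Lu-R, STING1 went to 18.2 CPM per kb, under ADAR at 28.0, and RIGI (10.3) stood under MAVS (11.6) and above EIF2AK2 (8.40). This order depends on the length used: dividing by all annotated exonic bases in place of the canonical transcript, an alternative added after seeing the data, moved the rank of 7 genes in 451Lu-R with DMSO, of 6 in 1205Lu-R with DMSO, of 5 in 1205Lu-R with corin and of 2 in 451Lu-R with corin. It put ADAR above STING1 in 1205Lu-R with DMSO and EIF2AK2 above RIGI in 1205Lu-R with corin.

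**Figure D3:**
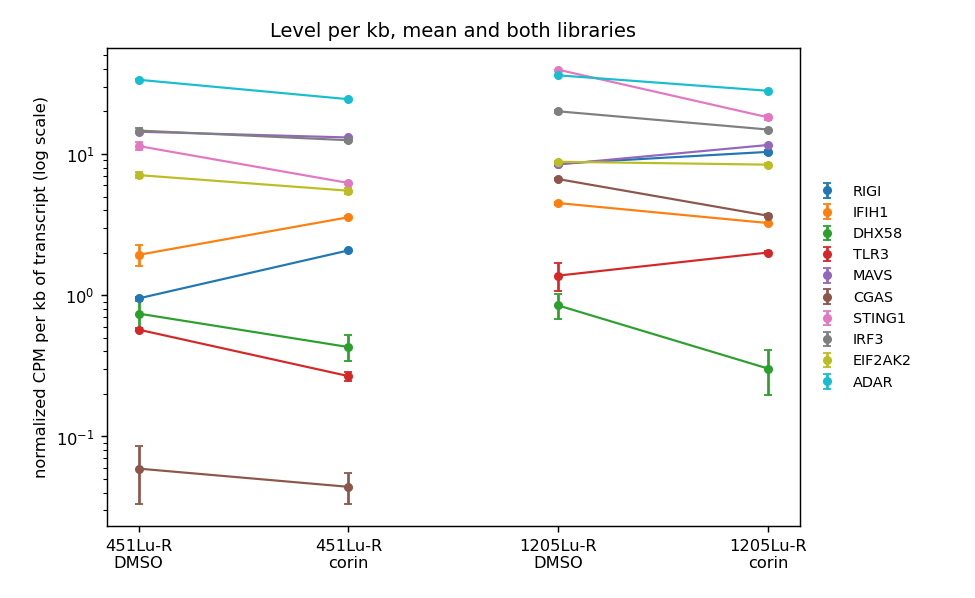
Normalized CPM per kb of canonical transcript on a log axis for each sensor gene in the 4 groups, with points at the mean and bars reaching to the 2 libraries. Lines join DMSO to corin within a cell line, and those of RIGI and IFIH1 climb in 451Lu-R, while STING1 leads with 39.5 CPM per kb in 1205Lu-R with DMSO.

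Around the 10 sensors, 137 other genes of sensing and interferon signaling were listed in 8 groups, and 132 of them were in the table. Of 110 tested in 451Lu-R, 53 rose and 42 fell (median log2 fold change 0.13), and of 114 tested in 1205Lu-R, 49 rose and 44 fell (median 0.02). Over all genes 41.3% rose and 38.6% fell in the first line, and 40.4% and 37.8% in the second. The pooled counts thus lie near the background. The same shares are the background of each group below, and no group was tested against them as a set. Every change described as a rise or fall passed the same edgeR test. Interferons, their receptors and JAK-STAT had the largest share of tested genes risen in each line, with 8 of 11 risen and 1 fallen in 451Lu-R (median 0.56) and 7 and 1 of 11 in 1205Lu-R (median 0.53). SOCS3, a feedback inhibitor of cytokine receptors, rose from 4.82 and 3.83 CPM to 23.6 and 27.3 in 451Lu-R and from 31.9 and 33.7 to 109 and 113 in 1205Lu-R. USP18, which restrains interferon receptor signaling, rose from 5.08 and 4.61 to 22.9 and 21.9 CPM and from 16.5 and 15.4 to 21.2 and 24.1. SOCS1, a further such inhibitor, had 3 and 1 counts with DMSO in 451Lu-R and 36 and 21 with corin, at least 9.58-fold more by the floor, and rose by 1.03 (SE 0.23) in 1205Lu-R. The RNAs of the interferons IFNE and IFNL2 were too low to test in both lines. IFNB1, IFNK, IFNL1 and IFNL3 were not found by name among the genes of the deposited table, so they could not be tested.

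Of the interferon-stimulated effector genes, 451Lu-R had 12 up and 5 down among 19 tested (median 0.76), and 1205Lu-R had 10 up and 6 down among 21 (median 0.12), and the difference between these counts was not tested. HERC6, of the HERC family of ubiquitin ligases, rose from 2.69 and 3.14 CPM to 26.9 and 31.4 in 451Lu-R and from 10.1 and 10.0 to 17.6 and 17.8 in 1205Lu-R. IFIT1, which binds RNA without a self cap, rose from 2.04 and 1.67 to 10.8 and 12.01 CPM and from 11.9 and 11.4 to 28.8 and 29.4. TRIM22, an antiviral ubiquitin ligase, fell from 23.0 and 24.6 to 3.38 and 2.85 CPM in 1205Lu-R and had 2 to 3 counts in the 451Lu-R libraries. The summed leukocyte markers given above were also higher in the corin libraries. Of the 7 in the table, CD14, CSF1R and LYZ could be tested and rose in 451Lu-R, and CSF1R alone could be tested and rose in 1205Lu-R, and their part in these counts was not tested.

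Among the interferon regulatory factors besides IRF3, 451Lu-R had 3 up and 2 down among 6 tested, and 1205Lu-R had 3 up and 2 down among 5. IRF7, the factor that amplifies interferon production, rose from 4.29 and 3.93 to 26.8 and 26.6 CPM in 451Lu-R and from 10.1 and 9.36 to 39.5 and 39.7 in 1205Lu-R. IRF4, known in melanocytes as a pigmentation factor acting with MITF, fell from 71.1 and 72.8 to 5.98 and 4.66 CPM in 451Lu-R and had at most 3 counts in 1205Lu-R. IRF5 was scarce, rising from 2 and 5 counts to 15 and 14 in 451Lu-R, and from 0 and 9 counts to 45 and 46 in 1205Lu-R.

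The direct partners of the RIG-I-like receptors were split, with 5 of 11 risen and 5 fallen in 451Lu-R (median 0.11) and 3 and 4 of 11 in 1205Lu-R (median 0.01). TRIM25, a ubiquitin ligase of RIG-I, rose from 161 and 153 to 311 and 292 CPM in 451Lu-R and from 94.6 and 90.8 to 259 and 268 in 1205Lu-R. ZCCHC3, a nucleic acid-binding co-receptor of RIG-I, MDA5 and cGAS, fell from 59.0 and 55.5 to 20.6 and 18.6 CPM and from 19.5 and 18.5 to 6.05 and 5.80. TRIM65, a ligase of MDA5, fell from 42.0 and 44.7 to 19.1 and 17.1 CPM and from 28.9 and 30.0 to 18.3 and 21.0.

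Other nucleic acid sensors likewise went both ways, with 4 of 12 risen and 6 fallen in 451Lu-R (median -0.27) and 7 and 7 of 15 in 1205Lu-R (median 0.23). NLRP1, an inflammasome sensor that can respond to double-stranded RNA, rose from 7 and 6 counts to 108 and 111 in 451Lu-R and from 12 and 21 to 47 and 49 in 1205Lu-R. OASL, an OAS family protein that enhances RIG-I and restrains cGAS, was at 0 counts in both 451Lu-R DMSO libraries and at 28 and 19 with corin, at least 7.95-fold more by the floor, and rose from 7.99 and 9.75 to 18.4 and 16.3 CPM in 1205Lu-R. OAS2, which makes the activator of RNase L, fell from 9.67 and 7.41 to 2.98 and 2.81 CPM in 1205Lu-R and had at most 2 counts in 451Lu-R.

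Adaptors and kinases below the sensors were balanced in 451Lu-R (8 of 18 risen, 8 fallen, median 0.12) and had 5 risen and 9 fallen of 18 in 1205Lu-R (median -0.17). MYD88, the adaptor of the other Toll-like receptors, fell from 7.53 and 7.17 to 2.55 and 3.21 CPM and from 26.3 and 28.7 to 20.9 and 17.6. TANK, a scaffold of the kinase TBK1, rose from 20.4 and 16.7 to 41.5 and 39.6 CPM and from 25.9 and 28.3 to 46.7 and 46.0. TBKBP1, another such scaffold, rose in 1205Lu-R from 3.48 and 3.02 to 9.03 and 10.5 CPM and stood at 5.43 and 5.70 and then 5.90 and 6.52 in 451Lu-R, where it was not called.

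Among nucleases and inhibitors of sensing, 451Lu-R had 11 down and 7 up among 22 tested (median -0.35), and 1205Lu-R had 10 down and 8 up among 22 (median -0.14), while the 3 genes with the largest change in either line rose. SAMHD1, which hydrolyzes deoxynucleotides, rose from 17.6 and 19.7 to 113 and 109 CPM in 451Lu-R and from 6.88 and 5.56 to 36.1 and 35.6 in 1205Lu-R. NLRC5, described both as an inhibitor of RIG-I signaling and as the activator of MHC class I genes, rose from 1.49 and 1.77 to 18.4 and 18.4 CPM and from 4.32 and 4.58 to 15.0 and 13.9. TNFAIP3, the deubiquitinase A20, rose from 4.03 and 4.13 to 20.8 and 25.1 CPM and from 1.41 and 1.76 to 15.5 and 13.2.

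Genes of RNA editing and the partners of PKR, relatives in function of ADAR and EIF2AK2, were risen in 6 of 11 and fallen in 4 in 451Lu-R (median 0.12), and in 6 and 5 of 11 in 1205Lu-R (median 0.31). ADARB1, the second editing enzyme, rose from 22.7 and 21.2 to 70.1 and 68.4 CPM in 451Lu-R and from 25.6 and 26.8 to 56.7 and 58.3 in 1205Lu-R, opposite to ADAR. TARBP2, which binds PKR and serves Dicer, fell from 24.6 and 24.3 to 10.3 and 11.2 CPM and from 15.2 and 16.9 to 7.49 and 5.80.

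**Figure D4:**
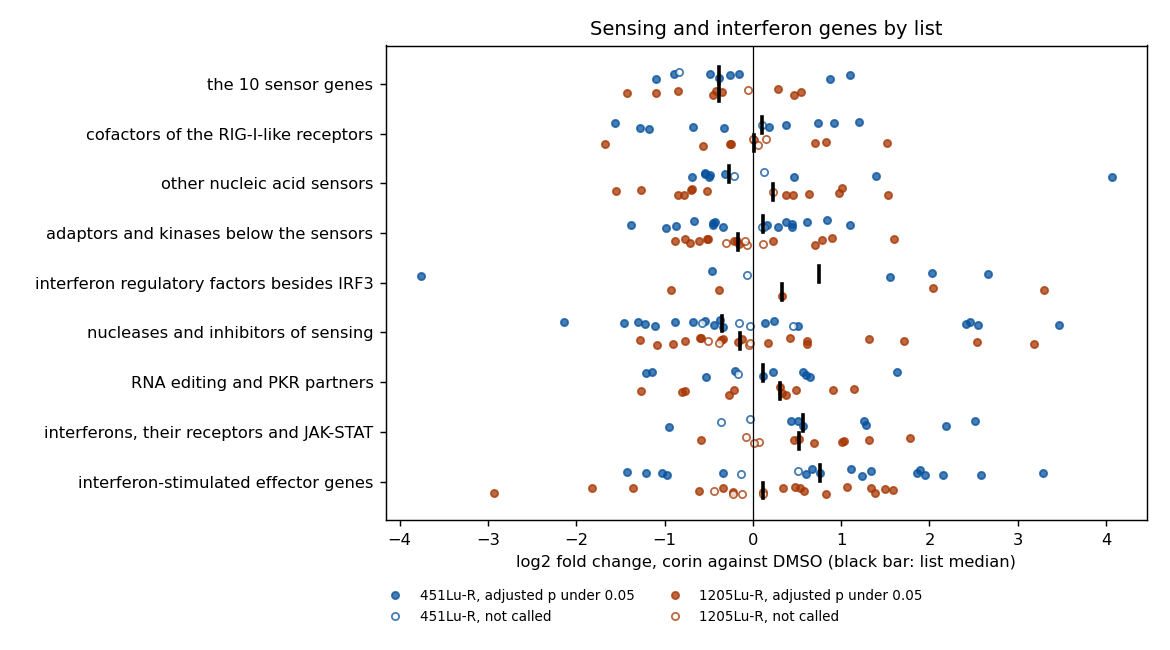
Log2 fold changes of corin against DMSO for the 10 sensors and the 8 groups of other sensing and interferon genes, 1 point per gene tested, filled where the adjusted p is under 0.05, with the group median as a black bar. The sensors' medians lie left of 0 and those of the interferon and JAK-STAT group right of it in both lines, and 3 genes with a group at the floor (OASL and SOCS1 in 451Lu-R, TLR7 in 1205Lu-R) are not drawn.

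Over the 8 libraries the 3 sensors with the widest range of group mean log2 CPM were CGAS, whose range has no exact value because 451Lu-R is at the floor, RIGI (3.33) and TLR3 (2.74), and the narrowest was ADAR (0.58). Among 14406 genes with a mean of at least 1 CPM, those whose log2 CPM correlated best with RIGI were CD9, STAC and DEGS1 (Pearson r 0.999 for each). CD9 stood at 20.8, 54.3, 316 and 381 CPM in 451Lu-R with DMSO and corin and 1205Lu-R with DMSO and corin. CGAS, with 4 of its 8 points at the floor, was matched best by EMILIN1 (0.999), ARF4 (0.999) and ACTN1 (0.998), and TLR3 by PLAGL2 (0.990), SRFBP1 (0.989) and HECW2-AS1 (0.989). The 8 points share 2 lines and 2 treatments and differ mainly between the lines, so these values describe the pattern of 4 group means and carry no test.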

How the data were processed

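Per the labels, the authors passed paired-end reads of polyA RNA through Trimmomatic and then Salmon, with GENCODE 32 transcripts as the target, and added transcripts up to genes (tool versions are not given in the sources used here). The deposited values are therefore expected counts, estimated by Salmon and not always whole, and they were rounded before testing. For 8 of the 16 samples, those with PLX4032, only tables of the authors' own comparisons (fold changes and p-values) were given, and these were not used.

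Gene IDs were paired with GENCODE 44 names (34052 of 34228 matched). Within each line the 4 libraries were filtered with filterByExpr, scaled by TMM and tested with edgeR 4.0.16 (R 4.3.3) by the quasi-likelihood test, 2-sided, with Benjamini-Hochberg adjustment over all genes, and called at 0.05. Each such fit had 2 residual degrees of freedom, and the spread used for a gene also drew on that of the other genes. Differences between lines and of the response were contrasts in 1 fit of all 8 libraries. SE is the absolute log2 fold change over the square root of F. Normalized CPM uses the TMM-scaled totals of the 8 libraries. A library value of 3 counts or fewer in both libraries of a group is called the floor. Bounds given by it take no account of the spread between libraries. Scripts were tested on simulated data. Alternatives were DESeq2 1.42.0, other scalings and filters, fold limits, a replicate block, a joint fit and leaving out each library. The members and gene lists were chosen with earlier results of these data known. All members were named, and from each other list up to 3 genes with the largest called change in either line at a mean of at least 1 CPM, 1 of which is not reported here. Promoters were printed for at most 4 of the members present in the RefSeq set, by largest called change. Likeness was ranked for the 3 members of widest range.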

Additional observations from a re-analysis of the deposited data

Results flagged for a closer look

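The response to corin differed between the lines, by edgeR's test of the interaction, for 5 of the sensors and for 13 of the other genes named above. Values are log2 differences, 1205Lu-R minus 451Lu-R, each from the fit of all 8 libraries. Among the sensors they were 1.61 for TLR3, 0.59 for MAVS, 0.29 for EIF2AK2, -0.85 for RIGI and -1.37 for IFIH1. Among the other genes the fold change was higher in 1205Lu-R for TBKBP1 (1.43) and TRIM25 (0.57), and the fall was smaller there for MYD88 (0.84) and TRIM65 (0.68). The rise was smaller in 1205Lu-R for NLRP1 (-2.57), HERC6 (-2.50), NLRC5 (-1.80), USP18 (-1.69) and IFIT1 (-1.29). Smaller differences in the same direction were -0.77 for SOCS3, -0.66 for IRF7, -0.52 for ADARB1 and -0.35 for TANK. Genes with a group at the floor, such as OASL, SOCS1, OAS2, IRF4 and TRIM22, are not given here, because the size of their fitted difference depends on how a count of 0 is handled. About 49.7% of all genes tested differ in this way, so the calls are not particular to these genes.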

How the results depend on the processing

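Without a limit on fold, the corin comparisons called 8 sensors for 451Lu-R and 9 for 1205Lu-R, with 5 for the difference of response, 9 between lines with DMSO and 8 with corin. With a 2-fold limit these were 2, 2, 2, 5 and 4. With an adjusted p under 0.001 and a 4-fold limit they were 0, 0, 0, 2 and 3, and the 3 zeros were also 0 at an unadjusted p under 0.05 with the same fold limit in edgeR and in DESeq2. The 95 and 93 other sensing and interferon genes called became 42 and 30 at 2-fold, and 15 and 6 at 4-fold. DESeq2 called 6, 6, 5, 9 and 7 sensors, and 82 and 73 of the other genes. Leaving out 1 library gave 7 to 9 sensors for 451Lu-R, 8 to 9 for 1205Lu-R, 5 for the difference of response, 9 between lines with DMSO and 7 to 8 with corin, and 89 to 94 and 85 to 92 of the other genes. The lone library of a group is then assumed to vary like the rest. Scaling by library totals only moved the median of all genes to -0.07 for 451Lu-R and 0.11 for 1205Lu-R, and that of the difference of response to 0.20. Under it EIF2AK2 in 1205Lu-R became 0.017, the difference of response of IRF3 became 0.015 (neither called) and ADAR between lines with DMSO became -0.019 (no longer called), and calls were gained for the fall of DHX58 in 451Lu-R (-0.94) and the difference of response of ADAR (0.30). Without a filter ADAR between lines with DMSO was not called (0.08). DHX58 between lines with DMSO, not called, ran from -0.14 to 0.57 as single libraries were left out (-0.14 without 1205Lu-R DMSO replicate 1, -0.10 without 451Lu-R DMSO replicate 2). Without the latter library the difference of response of STING1 was called (-0.36). IRF3 between lines with corin was not called with DESeq2 (0.28), without 1205Lu-R corin replicate 2 (0.25) or without 451Lu-R corin replicate 1 (0.20). The causes were not tested.

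Libraries with the same replicate number showed no shared deviation (correlation -0.01 for 451Lu-R and -0.02 for 1205Lu-R). This cannot tell whether their cultures were paired. With replicate numbers as a block, 8, 9, 5, 9 and 8 sensors and 95 and 92 other genes were called. With 2 libraries a group and 5 to 28 counts, DHX58 is the sensor the depth limits most after CGAS in 451Lu-R.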
